A study of Mus musculus with 6 samples.

Results

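The CCN genes encode a small family of secreted matricellular proteins, which sit in the extracellular matrix and bind integrins, proteoglycans and growth factors rather than serving as structural fibers. The members examined here were *Cyr61* (CCN1), *Ctgf* (CCN2), *Nov* (CCN3), *Wisp1* (CCN4) and *Wisp2* (CCN5), taken as the rows of the expression table that carry these gene names. They make up 5 of the 49548 genes in the table, and all 5 were among the 26402 genes read at least once, which were tested. The mean over the 6 libraries was at least 10 normalized counts for 4 of them, the exception being *Wisp2*.

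The proteins share an insulin-like growth factor binding module, a von Willebrand factor type C module and a thrombospondin type 1 module, followed in all members but WISP2 by a cysteine-knot module at the C-terminus. *Cyr61* and *Ctgf* are textbook targets of the Hippo pathway coactivators YAP and TAZ, which act through TEAD factors, and *Ctgf* is also a classical response gene of TGF-beta in fibroblasts. *Wisp1* and *Wisp2* were named for their induction by Wnt1, and *Nov* was found as a gene overexpressed in virally induced kidney tumors. In fibroblasts and mural cells the family is known for roles in adhesion, wound repair, fibrosis and vessel formation.

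The study asked how cancer-associated fibroblasts (CAFs) that express the *Col6a1* Cre driver differ from the remaining CAFs in colitis-associated cancer. All mice were of the C57/BL6 strain and carried both Col6a1-cre and the Rosa26-mTmG reporter, in which Cre recombination replaces a red membrane Tomato protein by a green one (GFP). Mice of both sexes received the carcinogen azoxymethane (AOM) at an age of 8 to 10 weeks, followed by 3 cycles of the colitis-inducing dextran sulfate sodium (DSS). Colonic adenomas were digested, cells with the immune, epithelial, endothelial or erythroid markers CD45, EpCAM, CD31 or Ter119 were removed, and GFP+ cells (Col6a1+ CAFs, 3 libraries) and Tomato+ cells (Col6a1- CAFs, 3 libraries) were sorted. Each library came from the pooled tumors of 5 to 6 mice, so p-values measure the spread between pools and not between single animals. The Tomato+ gate holds every unrecombined cell without those markers, so the Col6a1- CAFs are a remainder and not one defined cell type. No library of normal tissue was compared here.

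The 3′ ends of polyadenylated transcripts were sequenced, and the values below are the deposited counts after scaling by size factors. These normalized counts summed to between 3039152 and 3425249 per library, and Col6a1+ replicate 1 had 14530 detected genes against 18770 to 20511 in the other libraries. *Col6a1* itself ranged from 861 to 1941 normalized counts in Col6a1+ CAFs and from 102 to 321 in Col6a1- CAFs, in the direction of the labels (log2 fold change 2.82, SE 0.44, limma adjusted p = 0.00613). The summed level of 9 pan-fibroblast markers was 43071 to 51695 in Col6a1+ CAFs and 8974 to 16409 in Col6a1- CAFs. Epithelial markers, which the sort should have removed, summed to 5881 to 6487 in Col6a1+ CAFs and 20214 to 34459 in Col6a1- CAFs. In such bulk samples, fewer cells of a type and less RNA per cell cannot be told apart.

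The promoter of *Cyr61* is shown because, of the members, only this gene was matched in the promoter set used here. *Cyr61* is a standard readout of TEAD, and its start region can be set beside the levels given below. The 250 bases before the start of *Cyr61* (RefSeq *Ccn1*, GRCm38.p6, chr3:145649986-145650235, minus strand, written 5′ to 3′ along the gene) were read from RefSeq, and the capitals mark matches to 3 short motifs.
Cyr61 promoter: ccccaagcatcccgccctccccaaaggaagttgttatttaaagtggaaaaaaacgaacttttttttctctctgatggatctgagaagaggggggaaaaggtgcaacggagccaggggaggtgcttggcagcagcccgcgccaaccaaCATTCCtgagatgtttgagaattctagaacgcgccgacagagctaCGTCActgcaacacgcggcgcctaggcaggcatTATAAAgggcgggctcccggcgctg
The first capitals are the TEAD motif GGAATG read on the opposite strand, 103 to 98 bases before the start, and the last are the TATA box TATAAA, 25 to 20 bases before it. Between them lies the CRE half-site TGACG on the opposite strand, at 58 to 54 bases. Among 32851 promoters of this length searched on both strands, 12.6% held the TEAD motif, 12.4% the TATA box and 17.8% the CRE half-site. The SMAD motif CAGAC, the AP-1 motif TGANTCA, the TCF/LEF motif TCAAAG and the CArG box had no match in this window. A match is a description of the letters and not a measured binding site. The promoters of *Ctgf*, *Nov*, *Wisp1* and *Wisp2* were not analysed here.

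The members did not behave alike between the populations. *Wisp1* and *Ctgf* were higher in Col6a1+ CAFs, by 5.96-fold and 2.96-fold, whereas *Cyr61* was 1.44-fold higher without passing the test. *Nov* did not separate the populations, and *Wisp2* was read only in Col6a1- CAFs, at a handful of counts. Over the 26402 genes, 703 (2.66%) were called higher and 517 (1.96%) lower in Col6a1+ CAFs by limma at an adjusted p under 0.05, and the median log2 fold change was -0.27. Of the 5 members, 2 were called higher and 0 lower. In the fit to the 13515 genes averaging at least 10 normalized counts, 6.03% of all genes were called higher. At an unadjusted p under 0.05 (6.63% of all genes higher, 9.4% lower), 1 member was lower, and limma-voom (3.05% of all genes called higher, 3.81% lower) also called 1 lower, in each case *Wisp2*. The 3 libraries of Col6a1+ CAFs lay above all 3 of Col6a1- CAFs for 3 members, each with a mean of at least 10. This pattern was shown by 7.91% of all tested genes and by 14.2% of genes with such a mean. They lay below them for 1 member, as for 11.6% of all tested genes.

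**Figure D1:**
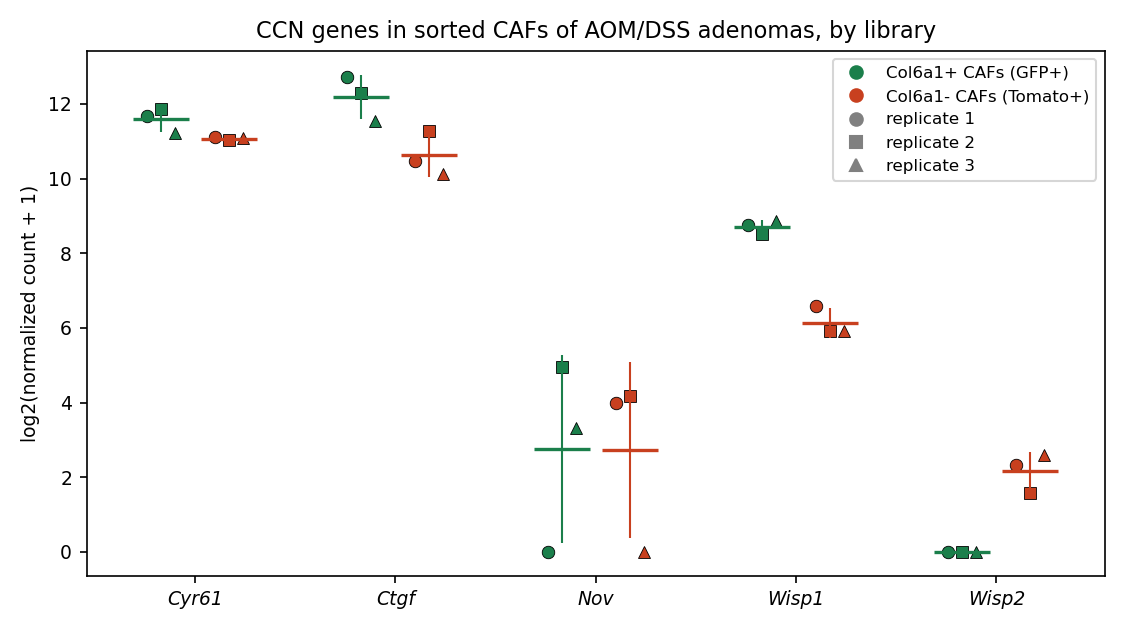
Level of each CCN gene in each library, as log2(normalized count + 1) on the vertical axis, in Col6a1+ (green) and Col6a1- (red) CAFs, with circles, squares and triangles for replicates 1, 2 and 3. Horizontal lines are means and vertical lines span 1 SD of the log2 values either way (n = 3). *Cyr61*, *Ctgf* and *Wisp1* were higher in every Col6a1+ library than in any Col6a1- library, *Nov* overlapped, and *Wisp2* was at 0 in all Col6a1+ libraries.

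*Wisp1* (ENSMUSG00000005124, mm10 chr15:66891320-66923201, plus strand) encodes a Wnt-inducible CCN protein made mainly by mesenchymal cells. It had 435, 365 and 462 normalized counts in replicates 1 to 3 of Col6a1+ CAFs and 96, 59 and 59 in those of Col6a1- CAFs. The lowest Col6a1+ library thus lay far above the highest Col6a1- library, and the groups did not overlap. The means were 421 ± 50.1 (SD, n = 3) and 71.3 ± 21.4 (SD, n = 3). The log2 fold change was 2.58 (SE 0.34, 95% interval 1.82 to 3.33, limma adjusted p = 0.00252), and its p ranked 155 among the 26402 genes. Blocking on replicate number gave an adjusted p of 0.0612, blocking among genes averaging at least 10 normalized counts gave 0.00269, and testing all genes without a filter on low ones gave 0.0599. The call held in 4 of the 6 fits that left out 1 library and was lost without Col6a1- replicate 1 (adjusted p = 0.0503, log2 fold change 2.81) or Col6a1- replicate 3 (adjusted p = 0.0556, log2 fold change 2.46).

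Pericyte markers differed between the populations in the direction of *Wisp1*, as did other marker lists. All 8 of the pericyte list were called higher in Col6a1+ CAFs, and their sum was 41577 to 90981 normalized counts there against 1147 to 2141 in Col6a1- CAFs. Smooth muscle markers were called higher for 5 of 8, with sums of 12483 to 25046 against 493 to 2426. Without Col6a1- replicate 1, 4 of the pericyte and 0 of the smooth muscle markers were called. Telocyte markers (5 of 8) and pan-fibroblast markers (5 of 9) were called higher in Col6a1+ CAFs too, and 0 of either list without Col6a1- replicate 1. The part of any of these cell types in the level of *Wisp1* was not tested.

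*Ctgf* (ENSMUSG00000019997, mm10 chr10:24595442-24598683, plus strand), a connective tissue growth factor that promotes matrix production, had 6768, 5056 and 3007 normalized counts in Col6a1+ CAFs and 1429, 2489 and 1118 in Col6a1- CAFs. The groups did not overlap, but Col6a1+ replicate 3 came within a short distance of Col6a1- replicate 2, and the spread within each group was wide, with coefficients of variation of 38.1% and 42.8%. The means were 4944 ± 1883 (SD, n = 3) and 1679 ± 719 (SD, n = 3). The log2 fold change was 1.56 (SE 0.39, 95% interval 0.71 to 2.42, limma adjusted p = 0.0474).

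The *Ctgf* call sat at the threshold. It was lost in each of the 6 fits that left out 1 library, with adjusted p-values of 0.0687 to 0.278 and log2 fold changes of 1.30 to 1.89, with the replicate block (adjusted p = 0.101), with a pseudocount of 0.1 (0.0597) and with no filter on low genes (0.389), whereas the block among genes with a mean of at least 10 gave 0.0117. *Ctgf* shares 1667 bases with the antisense gene *Gm15270*, which had 24, 17 and 44 normalized counts in Col6a1+ CAFs and 9, 2 and 1 in Col6a1- CAFs, and whether strand was used in counting is not given in the sources used here.

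*Cyr61* (ENSMUSG00000028195, mm10 chr3:145646976-145649981, minus strand) encodes an immediate early, integrin-binding protein that promotes adhesion and angiogenesis. It had 3295, 3764 and 2382 normalized counts in Col6a1+ CAFs and 2201, 2079 and 2169 in Col6a1- CAFs. The 3 Col6a1- libraries were nearly level (coefficient of variation 2.94%), and the lowest Col6a1+ library was only slightly above them. The means were 3147 ± 703 (SD, n = 3) and 2150 ± 63.3 (SD, n = 3), and the log2 fold change of 0.52 did not pass the test (SE 0.27, 95% interval -0.08 to 1.13, limma adjusted p = 0.392). The interval of the fold reached from 0.946 to 2.19, so neither equal levels nor a doubling lay outside it. Over the alternative fits the adjusted p stayed between 0.206 and 0.845.

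*Nov* (ENSMUSG00000037362, mm10 chr15:54745702-54754039, plus strand) encodes a CCN protein often described as opposing CCN2. It had 0, 30 and 9 normalized counts in Col6a1+ CAFs and 15, 17 and 0 in Col6a1- CAFs. Each group held 1 library at 0, and the groups overlapped over most of their range. The means were 13.0 ± 15.4 (SD, n = 3) and 10.7 ± 9.29 (SD, n = 3), with a log2 fold change of 0.04 (SE 1.52, 95% interval -3.34 to 3.41, limma adjusted p = 1.0). At these levels no difference was detectable, and the sign turned when library totals replaced the size factors.

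*Wisp2* (ENSMUSG00000027656, mm10 chr2:163820861-163833146, plus strand), the member without the C-terminal module, had 0 normalized counts in all 3 Col6a1+ libraries and 4, 2 and 5 in the Col6a1- libraries. Summed over each group this was 0 against 11. Setting the 0 to a floor of 3 counts gave a ratio of 3.67 between Col6a1- and Col6a1+ CAFs. This ratio takes the 11 as exact and leaves out the spread between libraries, so it is not a lower bound on the difference. The limma interval of the fold, Col6a1+ over Col6a1-, ran from 0.0799 to 0.623. The limma adjusted p was 0.108, and 0.0480 with limma-voom. The remaining mouse family gene, *Wisp3*, had 1 normalized count in replicate 2 of each population and 0 elsewhere.

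**Figure D2:**
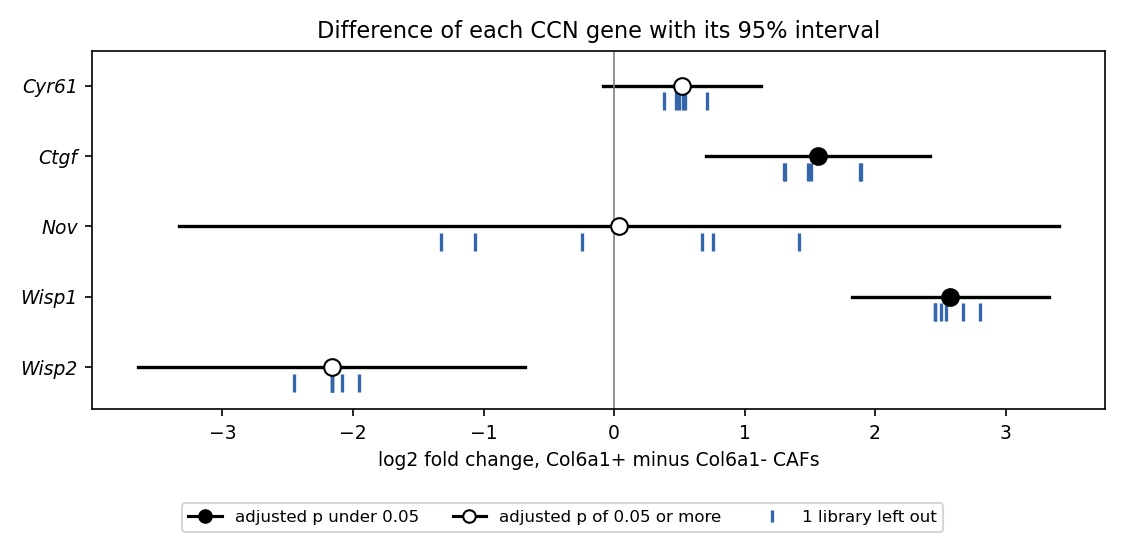
Log2 fold change of each CCN gene between Col6a1+ and Col6a1- CAFs (horizontal axis), with the 95% interval as a line, a filled circle where the limma adjusted p was under 0.05, and blue ticks for the fits that left out 1 library. *Wisp1* and *Ctgf* lay to the right of 0 with their whole intervals, the interval of *Cyr61* reached 0, that of *Nov* ran from -3.34 to 3.41, and that of *Wisp2* lay below 0 while its adjusted p did not pass.

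Levels of different genes were set side by side per kilobase of the gene model of the deposited table, which for 3′ end counts is a convention and not a correction. The model length was 1944 bases for *Cyr61* and 4116 for *Ctgf*, the latter longer than the span of its coordinates. An annotated transcript of *Cyr61* had 2019 bases and one of *Ctgf* 2398, so their order on this scale rests on the model length. On this scale *Cyr61* had 1619 ± 362 (SD, n = 3) normalized counts per kilobase in Col6a1+ CAFs and *Ctgf* had 1201 ± 457 (SD, n = 3). The Col6a1- levels were 1106 ± 32.5 (SD, n = 3) for *Cyr61* and 408 ± 175 (SD, n = 3) for *Ctgf*. *Cyr61* was the higher of these neighbours in all 6 libraries, but in Col6a1+ CAFs the distance between them was smaller than the SD of *Ctgf*. *Wisp1* followed at 54.3 ± 6.46 per kilobase against 9.20 ± 2.76 (SD, n = 3, Col6a1+ first). *Nov*, at 4.66 ± 5.52 and 3.83 ± 3.33 (SD, n = 3), and *Wisp2*, at 0 and 1.14 ± 0.475 (SD, n = 3), were lowest. Without division by length, *Ctgf* had more normalized counts than *Cyr61* in all 3 Col6a1+ libraries and in Col6a1- replicate 2, so the order of these members depends on the scale.

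The balance between members can be compared within each library, which removes library scaling. Of the summed normalized counts of the 5 members, *Cyr61* made up 31.4%, 40.8% and 40.6% in Col6a1+ CAFs and 58.8%, 44.7% and 64.7% in Col6a1- CAFs. Every Col6a1- library gave *Cyr61* a larger share than any Col6a1+ library did. *Ctgf* made up 64.5%, 54.9% and 51.3% in Col6a1+ CAFs and 38.2%, 53.6% and 33.4% in Col6a1- CAFs. These shares overlapped, since Col6a1- replicate 2 lay above Col6a1+ replicate 3, although within each replicate number the Col6a1+ library had the larger share of *Ctgf*. *Wisp1* took 5.33% ± 2.21 (SD, n = 3) of the family in the Col6a1+ population against 1.86% ± 0.653 (SD, n = 3) in the other, without overlap. With 3 libraries against 3, a two-sided, unpaired exact permutation test cannot go below p = 0.1, which the shares of *Cyr61* and *Wisp1* reached, while that of *Ctgf* gave p = 0.2.

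The log2 ratio of *Cyr61* to *Ctgf* was -1.04, -0.43 and -0.34 in Col6a1+ CAFs and 0.62, -0.26 and 0.96 in Col6a1- CAFs. *Ctgf* thus exceeded *Cyr61* in every Col6a1+ library and in 1 Col6a1- library, and the groups did not overlap (difference -1.04, exact permutation p = 0.1, adjusted p = 0.2 over 10 pairs). The ratio of *Cyr61* to *Wisp1* differed by -2.05 on the log2 scale without overlap (exact permutation p = 0.1), and that of *Ctgf* to *Wisp1* by -1.01 with overlap (exact permutation p = 0.2). Of the 10 pairs of members, 5 did not overlap between the populations, and all 4 pairs with *Nov* overlapped. Of the 5, 3 hold *Wisp2*, which was at 0 in all Col6a1+ libraries, so that the pseudocount sets their size. The difference in the ratio of *Cyr61* to *Wisp2* was 2.69 with a pseudocount of 1 and 5.67 with 0.1.

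**Figure D3:**
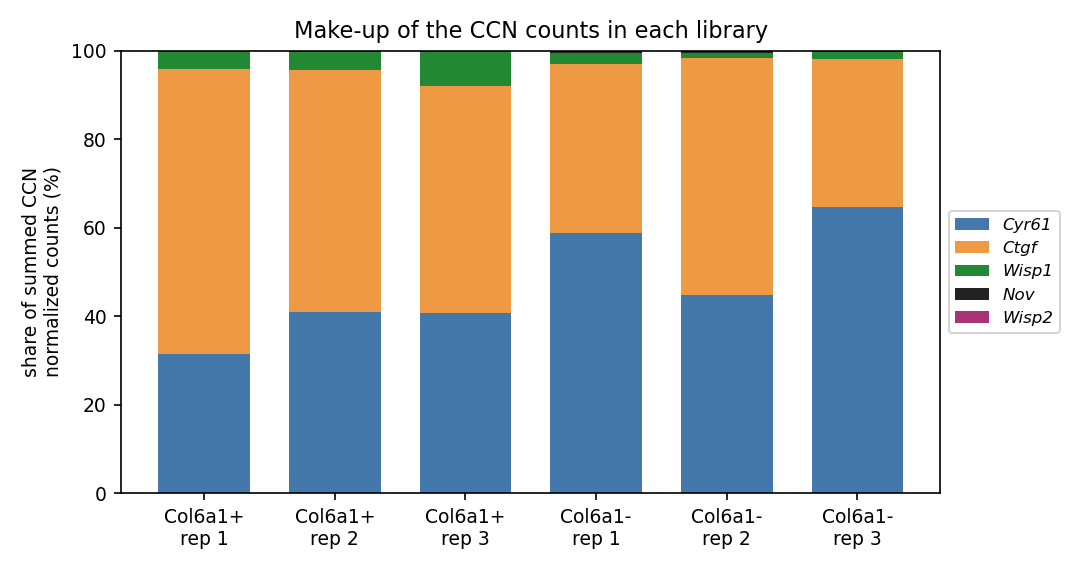
Share of each CCN gene in the summed normalized counts of the 5 genes, in percent, as 1 stacked bar per library. *Cyr61* made up 31.4% to 40.8% in Col6a1+ CAFs and 44.7% to 64.7% in Col6a1- CAFs, and the shares of *Nov* and *Wisp2* are too small to see.

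Since fibroblast markers differed between the populations, the members were also set against the summed level of the 9 pan-fibroblast markers of the same library, a scale chosen after seeing the data. It includes *Col6a1* and *Col6a2*, to which the sort is related. The 5 markers called higher in Col6a1+ CAFs, these and *Col1a1*, *Col1a2* and *Col3a1*, all encode collagens. *Dcn*, *Lum*, *Dpt* and *Vim* were not called, but all 9 markers had a log2 fold change above 0. At an unadjusted p under 0.05, 7 of the 9 were higher (6.63% of all genes), and limma-voom called 6 (3.05% of all genes). Since it holds collagen genes, the scale also carries collagen expression and is not a measure of fibroblast share alone. Per 1000 normalized counts of these markers, *Cyr61* had 76.5, 80.0 and 46.1 in Col6a1+ CAFs and 134, 129 and 242 in Col6a1- CAFs. On this scale *Cyr61* was thus lower in every Col6a1+ library, the reverse of its order in normalized counts (log2 difference -1.30, exact permutation p = 0.1).

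*Ctgf* had 157, 107 and 58.2 per 1000 in Col6a1+ CAFs and 87.1, 155 and 125 in Col6a1- CAFs. The groups overlapped and the higher level of *Ctgf* was no longer seen (log2 difference -0.26, exact permutation p = 0.7). *Wisp1* had 10.1, 7.75 and 8.94 in Col6a1+ CAFs and 5.85, 3.67 and 6.57 in Col6a1- CAFs. It stayed higher in every Col6a1+ library (log2 difference 0.75, exact permutation p = 0.1), which is the smallest p this design can give. The part of the share of fibroblasts in the normalized counts was not tested further.

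**Figure D4:**
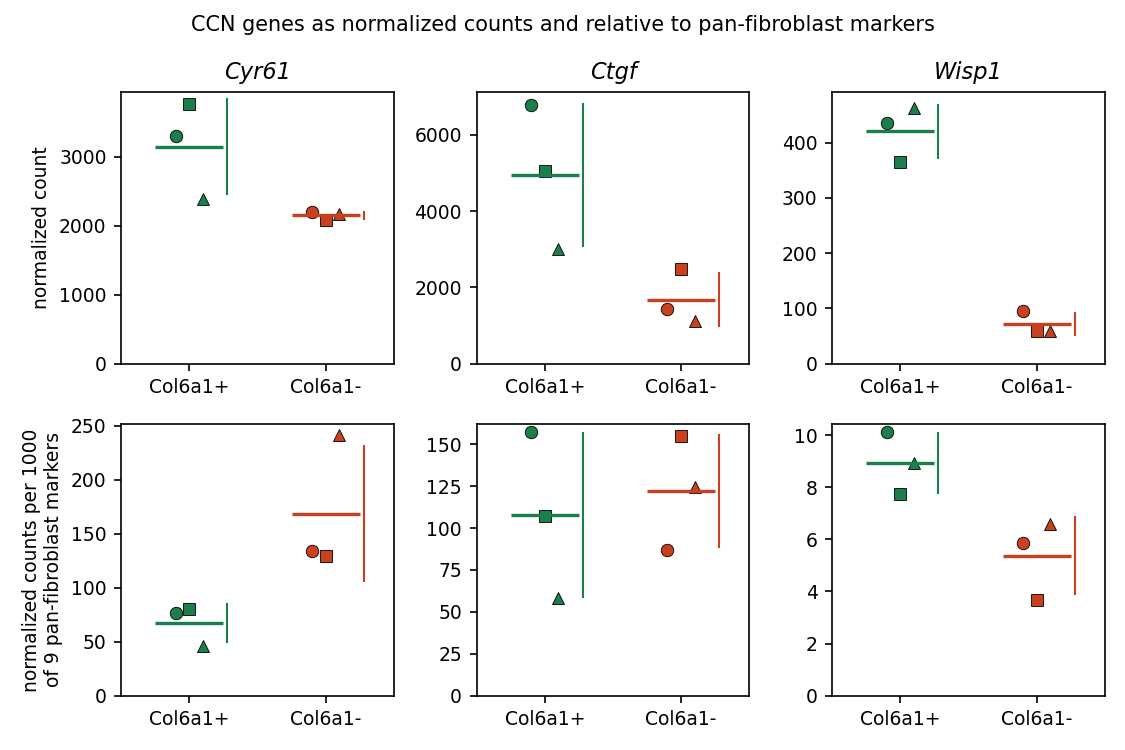
*Cyr61*, *Ctgf* and *Wisp1* as normalized counts (upper panels) and per 1000 normalized counts of the 9 pan-fibroblast markers of the same library (lower panels), in Col6a1+ (green) and Col6a1- (red) CAFs, with circles, squares and triangles for replicates 1, 2 and 3, horizontal lines for means and vertical lines for the SD. In the lower panels *Cyr61* was lower in all Col6a1+ libraries, *Ctgf* overlapped and *Wisp1* was higher in all Col6a1+ libraries.

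The pathways that are known to act on these genes were read through gene lists. Among 22 other YAP/TAZ target genes, 6 were called higher and 1 lower in Col6a1+ CAFs, and the median log2 fold change was 0.97 against -0.27 over all genes. The largest called differences were those of *Axl*, a receptor tyrosine kinase (3.67, limma adjusted p = 0.00191), *Tgfb2*, a TGF-beta ligand (3.54, limma adjusted p = 3.56e-04), *Crim1*, a membrane protein that binds BMPs (3.01, limma adjusted p = 0.00558), and *Arhgef17*, a guanine nucleotide exchange factor (2.63, limma adjusted p = 0.003). *Nt5e*, the ecto-5′-nucleotidase, was the gene called lower (-1.55, limma adjusted p = 0.0499) and was named after its values were seen. *Ankrd1*, often measured together with *Ctgf* and *Cyr61*, had 0, 14 and 9 normalized counts in Col6a1+ CAFs and 56, 32 and 92 in Col6a1- CAFs. It lay the other way from *Ctgf*, without overlap, and did not pass the test (log2 fold change -3.40, limma adjusted p = 0.107). Leaving out a Col6a1+ library kept 6, 4 and 4 of the list called higher (replicates 1 to 3), and leaving out a Col6a1- library kept 1, 2 and 1. The whole table fell as well, to 11 genes called higher and 1 lower without Col6a1- replicate 1.

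Of 19 Hippo pathway and TEAD genes, 2 were called higher and 1 lower, with a median log2 fold change of 0.18. *Yap1* had 695, 586 and 655 normalized counts in Col6a1+ CAFs and 891, 452 and 610 in Col6a1- CAFs. The groups overlapped and the means were close (log2 fold change 0.04, SE 0.31, limma adjusted p = 0.961). *Wwtr1*, which encodes TAZ, had 274, 387 and 371 in Col6a1+ CAFs and 172, 114 and 125 in Col6a1- CAFs. It was higher in every Col6a1+ library and was called (log2 fold change 1.33, SE 0.32, limma adjusted p = 0.0454). The kinase gene *Lats2*, itself a YAP/TAZ target, was higher as well (2.08, limma adjusted p = 0.00602), and *Amot*, an angiomotin that binds YAP, was lower (-1.78, limma adjusted p = 0.032). *Tead1*, at 227, 329 and 238 against 126, 138 and 197, did not pass the test (0.79, limma adjusted p = 0.272). Leaving out any of the Col6a1- libraries left 0 genes of this list called, and leaving out Col6a1+ replicate 2 or 3 left 1.

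Serum response factor and immediate early genes, among which *Cyr61* is often counted, held 1 called gene of 21, and their median log2 fold change was 0.37. It was *Klf2*, a shear-responsive transcription factor (1.80, limma adjusted p = 0.0342), which kept its call in the fit without Col6a1+ replicate 1 and lost it in the other 5. No gene of this list was called lower by limma, where 3 were at an unadjusted p under 0.05 and limma-voom called 1.

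TGF-beta response genes showed 7 called higher of 16 and 0 lower (0 also at an unadjusted p under 0.05 and with limma-voom), with a median log2 fold change of 1.49. This list also holds ligand and receptor genes of the pathway, and *Tgfb2* is counted in the YAP/TAZ list as well. *Fn1*, *Itgb5* and *Tgfb1* are also in the list of CCN receptors and binding partners given below. *Postn* is also in that of matricellular genes outside the CCN family. *Tgfb2* had 1643, 1207 and 1366 normalized counts in Col6a1+ CAFs and 96, 130 and 135 in Col6a1- CAFs. The groups lay far apart, and the call held in all 6 fits that left out 1 library. *Tgfb3*, another ligand, had 358, 77 and 145 in Col6a1+ CAFs against 23, 21 and 10 in Col6a1- CAFs (log2 fold change 3.15, limma adjusted p = 0.0174). *Postn*, a matricellular protein (3.35, limma adjusted p = 0.00613), and *Itgb5*, an integrin subunit (2.68, limma adjusted p = 0.00232), were also higher. The ligand gene *Tgfb1*, at 43, 29 and 27 against 12, 18 and 5, did not pass the test (1.55, limma adjusted p = 0.331). Leaving out a Col6a1+ library kept 4, 5 and 4 of the list called higher (replicates 1 to 3), and leaving out a Col6a1- library kept 1, 2 and 2.

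Wnt/beta-catenin response genes lay the other way from *Wisp1*, which like *Wisp2* was named for Wnt. *Wisp2*, at a handful of counts, lay in the direction of this list (log2 fold change -2.16). It did not pass the test (limma adjusted p = 0.108) but did with limma-voom (adjusted p = 0.0480). Of the 17 genes of the list 12 were called lower in Col6a1+ CAFs and 0 higher (1 at an unadjusted p under 0.05, and 1 with limma-voom), with a median log2 fold change of -3.16. *Axin2*, a feedback inhibitor widely used to read this pathway, had 73, 29 and 25 normalized counts in Col6a1+ CAFs and 925, 324 and 733 in Col6a1- CAFs. The populations did not overlap (log2 fold change -3.97, SE 0.51, limma adjusted p = 0.00232). The largest called differences were those of the ubiquitin ligases *Znrf3* (-5.08, limma adjusted p = 0.0407) and *Rnf43* (-3.99, limma adjusted p = 0.00232), the Wnt deacylase *Notum* (-4.23, limma adjusted p = 0.00279) and the stem cell factor *Ascl2* (-4.10, limma adjusted p = 0.0437). Intestinal epithelial cells express many of these genes too, and 8 of 12 epithelial markers were called lower in Col6a1+ CAFs, led by *Cdh1* at 2344 to 2999 normalized counts against 10493 to 15452. Of the epithelial list, 4, 5 and 4 stayed called without a Col6a1+ library (replicates 1 to 3) and 0, 2 and 1 without a Col6a1- library. For the Wnt/beta-catenin list these counts were 7, 7 and 6 without a Col6a1+ library and 0, 5 and 0 without a Col6a1- library. The part of epithelial RNA in the latter list was not tested.

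**Figure D5:**
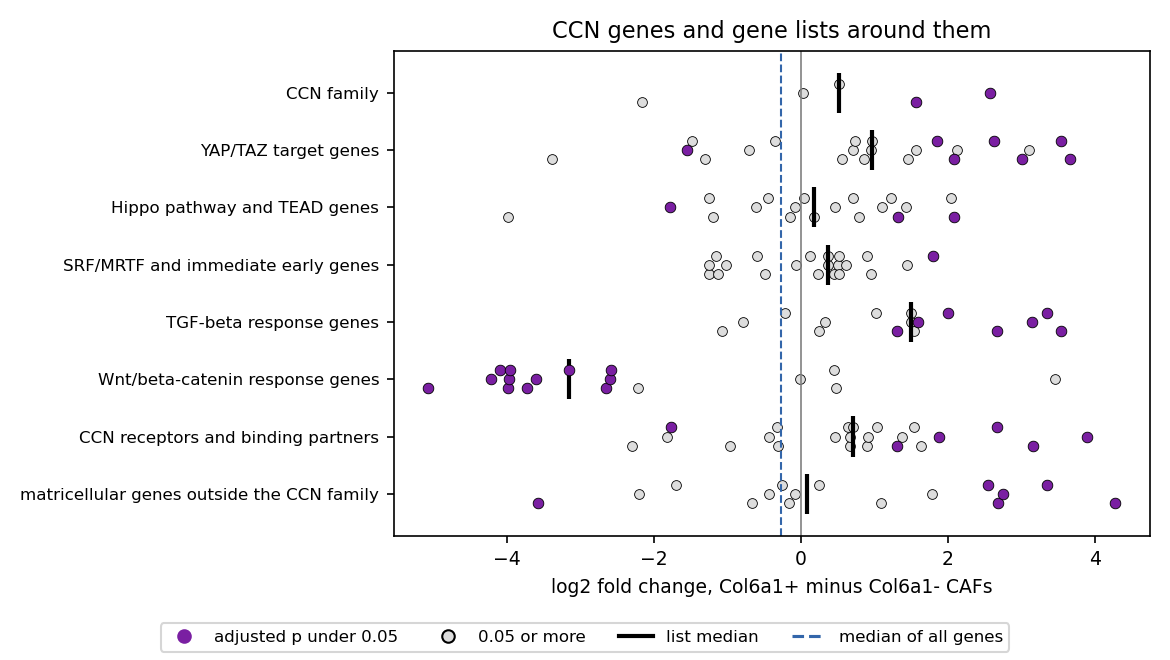
Log2 fold change between Col6a1+ and Col6a1- CAFs (horizontal axis) for the CCN genes and the genes of 7 lists, 1 circle per gene, filled where the limma adjusted p was under 0.05, with black bars for list medians and a dashed line for the median of all genes. TGF-beta response genes had a median of 1.49 and Wnt/beta-catenin response genes one of -3.16, on either side of the median of -0.27.

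On the receiving side, 22 genes for CCN receptors and binding partners were measured, of which 5 were called higher and 1 lower, with a median log2 fold change of 0.71. Of the 6 called genes, 4 encode integrin subunits. *Itgb3*, whose product pairs with the integrin alpha V subunit, had 1256, 300 and 2608 normalized counts in Col6a1+ CAFs and 142, 111 and 84 in Col6a1- CAFs (3.17, limma adjusted p = 0.0201). *Itgb1* had 1725, 2890 and 5387 against 834, 738 and 869 (1.88, limma adjusted p = 0.0208). Both were higher in every Col6a1+ library, with a wide spread there. *Itga6* was lower, at 185, 247 and 209 against 550, 711 and 981 (-1.77, limma adjusted p = 0.0109). The other genes called higher were *Itgb5*, *Fn1* for fibronectin (1.31, limma adjusted p = 0.0409) and *Acan*, a proteoglycan at 11, 16 and 15 normalized counts against 0 in all Col6a1- libraries, the latter pair named after their values were seen. Leaving out a Col6a1+ library kept 3, 2 and 1 of the list called higher (replicates 1 to 3), and leaving out a Col6a1- library kept 0, 1 and 1.

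Blocking on replicate number left no gene named here, *Col6a1* included, past the threshold, since 0 of the 26402 genes did in limma. At an unadjusted p under 0.05 that fit held 1851 genes (7.01%) higher and 2567 (9.72%) lower. When the block was fitted to genes averaging at least 10, 7.26% of all genes were called higher and 6.44% lower, and *Wisp1*, *Ctgf*, 8 YAP/TAZ target genes and 10 TGF-beta response genes were called higher and 11 Wnt/beta-catenin response genes lower.

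The genes whose profiles over the 6 libraries were most like those of each member were taken from 7594 genes (7595 for *Nov*) averaging at least 50 normalized counts. For *Wisp1* they were *Susd2* (Pearson r = 0.998), *Notch3* (r = 0.996) and *Ltbp1* (r = 0.996). *Notch3*, a receptor of mural cells and 1 of the pericyte markers used here, had 4826, 3159 and 5036 normalized counts in Col6a1+ CAFs and 141, 75 and 43 in Col6a1- CAFs. It was the most strongly separated of the 3 (log2 fold change 5.77, limma adjusted p = 1.97e-04). *Ltbp1*, a latent TGF-beta binding protein, had 660, 506 and 558 against 181, 116 and 121, and *Susd2* had 288, 202 and 284 against 29, 18 and 14.

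For *Ctgf* the most alike were *Ehd1* (r = 0.993), *Dclk1* (r = 0.990) and *Marveld1* (r = 0.989). *Marveld1* had 1543, 682 and 410 normalized counts in Col6a1+ CAFs and 114, 202 and 68 in Col6a1- CAFs. Like *Ctgf* it was highest in replicate 1 of Col6a1+ CAFs and in replicate 2 of Col6a1- CAFs. For *Cyr61* they were *Btg1* (r = 0.980), *Kctd11* (r = 0.966) and *Sphk1* (r = 0.954), each highest in Col6a1+ replicate 2, and for *Nov* they were *Loxl1* (r = 0.973), *Diablo* (r = 0.970) and *Fbxo6* (r = 0.956). The points of these correlations share their libraries and the split into populations, and the genes were picked as the highest of all of these, so they are given as descriptions.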

How the data were processed

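The libraries were QuantSeq 3′ mRNA libraries run on an Ion Proton instrument. The authors mapped reads to mm10 with TopHat2 and then Bowtie2, counted them per gene and scaled them by DESeq size factors. They deposited the log2 of the normalized count plus 1 per library and a signal per base of the gene model, used here for levels per kilobase. Undoing the log gave whole normalized counts in 100% of the values (relative tolerance 1e-06). The deposited p-values, false discovery rates, fold changes, means and flags were not used.

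Groups and replicate numbers came from the labels. A linear model was fitted with limma 3.58.1 (eBayes with trend) in R 4.3.3 to 26402 genes (a sum of 1 normalized count or more), with Benjamini-Hochberg adjustment and calls at 0.05. Fold changes are on the log2(normalized count + 1) scale and understate the change of low genes. Ratios and shares were compared by two-sided exact permutation tests. Motif searches and plots used Python 3.11.15, NumPy 2.4.6, pandas 2.3.3 and Matplotlib 3.10.9. The limma fit was tested on simulated data.

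The members, lists and rules were chosen with earlier results of these data known. Named genes were the members, up to 4 called genes per list by absolute log2 fold change with a mean of at least 10, *Yap1*, *Wwtr1*, *Tead1*, *Ankrd1*, *Axin2* and *Tgfb1* to *Tgfb3*, the 3 genes most correlated with each member with a mean of at least 10, and leading markers. An item that this rule also names is not reported here.

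The figure legend of the study counts only as many pooled samples in total as there are libraries per population. A Col6a1+ and a Col6a1- library may therefore come from the same pool of tumors. Deviations from group means over 13515 genes correlated at 0.245, 0.125 and 0.144 between libraries with the same replicate number. Between others they correlated at -0.245 to 0.150, so the numbers may pair the libraries. The tests given are unpaired, and since the replicate block alone ended every call, its values stand beside the members and its counts, once, beside the lists. The alternatives were library totals, a mean of at least 10, no filter, a pseudocount of 0.1, limma-voom, the replicate block with and without the mean filter, and leaving out each library, with the level relative to pan-fibroblast markers added after seeing the data.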

Additional observations from a re-analysis of the deposited data

How the results depend on the processing

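The table gives no reads per gene before scaling, so counting error was not modelled, and 3 libraries per population limit every unpaired exact test to p = 0.1 or more. *Ctgf* kept a log2 fold change of 1.56 but missed the threshold with no filter (limma adjusted p = 0.389), a pseudocount of 0.1 (0.0597) and the replicate block (0.101), ranged from 1.30 to 1.89 without 1 library, and was -0.26 relative to pan-fibroblast markers. *Wisp1* kept 2.58 but missed it with no filter (0.0599) and the replicate block (0.0612), ranged from 2.46 to 2.81 without 1 library, and was 0.75 relative to those markers. *Cyr61* turned to -1.30 relative to them. *Nov* turned to -0.0018 with library totals, to -0.025 with limma-voom and to -1.79 relative to the markers, and ranged from -1.33 to 1.41 without 1 library. *Wisp2* passed with limma-voom (-3.04, adjusted p = 0.0480). The ratio of *Cyr61* to *Nov* ranged from -0.94 to 1.86 and that of *Ctgf* to *Nov* from -0.12 to 2.64 without 1 library. Genes called higher numbered 703, but 21 with no filter, 0 with the block and 11 to 453 without 1 library. Genes called lower numbered 517, but 7 with no filter, 336 with a pseudocount of 0.1, 1006 with limma-voom, 0 with the block, 871 with the block and a mean of at least 10, and 1 to 442 without 1 library. Of the members, 2 were called higher, but 0 with no filter or the block, 1 with a pseudocount of 0.1 and 0 to 1 without 1 library, and limma-voom called 1 lower. The low-gene filter was applied anew to the libraries that remained, and the cause of these shifts was not tested.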

Other observations

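Matricellular genes outside the CCN family went both ways. Of 16 such genes, 5 were called higher and 1 lower in Col6a1+ CAFs, and the list's median was 0.08 (log2 fold change) against -0.27 over all genes. *Sparcl1*, a SPARC-like protein, had 2183, 1491 and 1608 normalized counts in Col6a1+ CAFs and 122, 130 and 43 in Col6a1- CAFs (4.28, limma adjusted p = 8.62e-04). *Sparc*, which binds collagen, had 9701, 21148 and 22436 against 1747, 3724 and 2278 (2.76, limma adjusted p = 0.00446). Both were higher in every Col6a1+ library. *Smoc2*, a calcium-binding member of the SPARC group, lay the other way, at 83, 60 and 49 against 1281, 409 and 840 (-3.58, limma adjusted p = 0.0019). The others called higher were *Postn*, *Tnc* (2.54, limma adjusted p = 0.00408) and *Thbs3* (2.68, limma adjusted p = 0.0222), the latter pair named after their values were seen. Leaving out a Col6a1+ library kept 4 called higher each time, and leaving out a Col6a1- library kept 0, 2 and 1 (replicates 1 to 3).

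Of the other marker lists, telocyte markers were called higher in Col6a1+ CAFs for 5 of 8 (sum 4008 to 6506 against 1362 to 1706) and trophocyte and adventitial markers lower for 2 of 10, *Cd81* and *Cd34*, named after their values were seen (1494 to 2671 against 3168 to 5328). Pan-fibroblast markers were called higher for 5 of 9, led by *Col3a1*. Without Col6a1- replicate 1 none of these 3 lists held a call. Immune markers were low in both populations (35 to 73 against 269 to 457), with *S100a8* called lower, and *Ms4a1* was at 0 in all 6 libraries. Endothelial markers summed to 186 to 438 against 335 to 575, and their median log2 fold change was -1.84, with 3 of 10 lower at an unadjusted p under 0.05. *Tie1* alone of the list was called, and in the other direction, and it lost its call in each of the 6 fits that left out 1 library. In the erythroid (110 to 1713 against 281 to 482), glial (56 to 73 against 29 to 77) and mesothelial lists (1 to 16 against 9 to 102), limma called 0 genes. At an unadjusted p under 0.05 these 3 lists held 0, 1 and 2 genes, and limma-voom called 0, 1 and 1.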
